A study of Mus musculus with 12 samples.

Results

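Ribosome biogenesis genes with Myc were described in mouse CD8+ T cells at rest, under an interferon and after stimulation of the T cell receptor complex. The members were 48 named genes: Myc and 47 genes whose products make, modify or assemble ribosomal RNA in the nucleolus. A member was measured where the platform's probe annotation gave an array row its symbol and no other, which held for 46 of the 48, on 52 of 33793 rows. Those 46 were part of 22180 genes measured in all. Fbl and Tsr1 stood only on rows that also carried a second gene's symbol and entered no count.

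The arrays measured total RNA of spleen CD8+ T cells of C57BL/6 mice, purified by removal of other cells and kept for 6 h in 1 of 4 conditions, with 3 arrays each. PBS cells were mock-treated; PBS with IFN-4a cells received the interferon alone; anti-CD3 cells received the stimulating antibody alone; anti-CD3 with IFN-4a cells received both. No animal, age or dose is given in the labels, and the replicates may be technical. The p-values then measure no more than how these samples vary. The question asked was how the interferon acts on CD8+ T cells with and without stimulation. The deposited values were taken as log2, and the median of the 12 arrays had been subtracted from each row, so that a value tells how far an array lay from the middle of its own row and not how abundant the RNA was. Since 6 arrays were stimulated and 6 were not, the value 0 lay between those sets for a gene that changed with anti-CD3. Below, a value is this centred log2 value and a change is a difference between group means of it.

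A resting T cell makes few ribosomes and raises their production when it is activated to grow and divide. RNA polymerase I transcribes the long precursor of the ribosomal RNAs in the nucleolus. Small nucleolar ribonucleoproteins (snoRNPs) guide methylation and pseudouridylation of the precursor, and the small subunit processome and a series of large subunit particles cleave, fold and assemble it. Myc, a transcription factor that binds DNA as a dimer with Max at E-boxes, is a known activator of genes at each of these steps and is induced by T cell receptor signals. The steps used below were Myc as regulator, 6 genes of polymerase I transcription, 7 measured snoRNP genes, 14 measured small subunit genes, 14 large subunit genes and 4 nucleolar proteins that act in more than 1 step.

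Promoter windows from the RefSeq annotation of GRCm38.p6, reaching from 250 bases before to 50 bases after the gene start, were at hand for 42 of the 48 members, and Myc was not among them. The palindromic E-box CACGTG was found in at least 1 window of 10 of those 42 members (23.8%) and of 8.1% of the 27025 genes in the table. The variant CACGCG, searched on both strands, was found in 14 of the 42 (33.3%) and in 10.5% of the 27025 genes. Those 27025 were every gene in the table, not only genes on the arrays, and were not matched to the members by base content. The 3 windows below belong to the members with an E-box that changed most with anti-CD3, and capitals mark the E-box. The window of Nop2, a methyltransferase of large subunit RNA, is chr6:125131633-125131932 on the plus strand. That of Utp20, a small subunit processome protein, is chr10:88826765-88827064 on the minus strand. That of Mybbp1a, a nucleolar Myb-binding protein, is chr11:72441077-72441376 on the plus strand.
Nop2: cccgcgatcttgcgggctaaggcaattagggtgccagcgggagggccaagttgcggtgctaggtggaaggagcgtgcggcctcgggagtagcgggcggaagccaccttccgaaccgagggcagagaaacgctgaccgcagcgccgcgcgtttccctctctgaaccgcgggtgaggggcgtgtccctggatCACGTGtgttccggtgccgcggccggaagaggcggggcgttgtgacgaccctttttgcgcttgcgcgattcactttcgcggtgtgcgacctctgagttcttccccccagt
Utp20: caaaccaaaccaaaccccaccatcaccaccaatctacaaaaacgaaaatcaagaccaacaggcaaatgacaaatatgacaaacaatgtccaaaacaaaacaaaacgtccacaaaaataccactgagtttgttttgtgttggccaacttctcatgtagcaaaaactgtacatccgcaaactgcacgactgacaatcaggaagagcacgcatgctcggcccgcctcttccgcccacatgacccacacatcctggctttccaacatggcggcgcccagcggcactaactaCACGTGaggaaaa
Mybbp1a: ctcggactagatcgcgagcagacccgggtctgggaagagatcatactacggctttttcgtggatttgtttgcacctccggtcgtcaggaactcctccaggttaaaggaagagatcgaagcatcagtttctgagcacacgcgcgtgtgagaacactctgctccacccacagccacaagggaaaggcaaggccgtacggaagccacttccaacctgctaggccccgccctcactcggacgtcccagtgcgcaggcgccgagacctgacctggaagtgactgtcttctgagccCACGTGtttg
The motif lay before the annotated start in Nop2, at bases 191 to 196 of the window, and within the first transcribed bases in Utp20 (bases 288 to 293) and Mybbp1a (bases 291 to 296). The other members with an E-box were Grwd1, Ltv1, Pes1, Tsr1, Utp18, Rrn3 and Wdr43. Among measured members with a window, the median change with anti-CD3 alone was 1.79 for the 9 with an E-box (1.02 to 2.22) and 1.40 for the 32 without (0.30 to 2.35), so the ranges overlapped over most of their length. A match of letters is a description of the window, and binding was not measured.

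Across the whole set, anti-CD3 was the larger axis. The median value over the 46 members was -0.774, -0.686 and -0.701 on the PBS arrays, -0.925, -0.937 and -0.926 with PBS and IFN-4a, 0.791, 0.788 and 0.721 with anti-CD3, and 0.640, 0.762 and 0.692 with anti-CD3 and IFN-4a. The resting arrays with the interferon thus lay below the other resting arrays, and the stimulated groups overlapped. Group means fell in the order anti-CD3, anti-CD3 with IFN-4a, PBS, PBS with IFN-4a for 41 members. The mean was lowest in PBS with IFN-4a for 44 members and highest in anti-CD3 for 42. For 45 members, all 6 stimulated arrays lay above all 6 resting ones. These counts were made for the members only, and the matching shares of all genes were not counted.

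**Figure D1:**
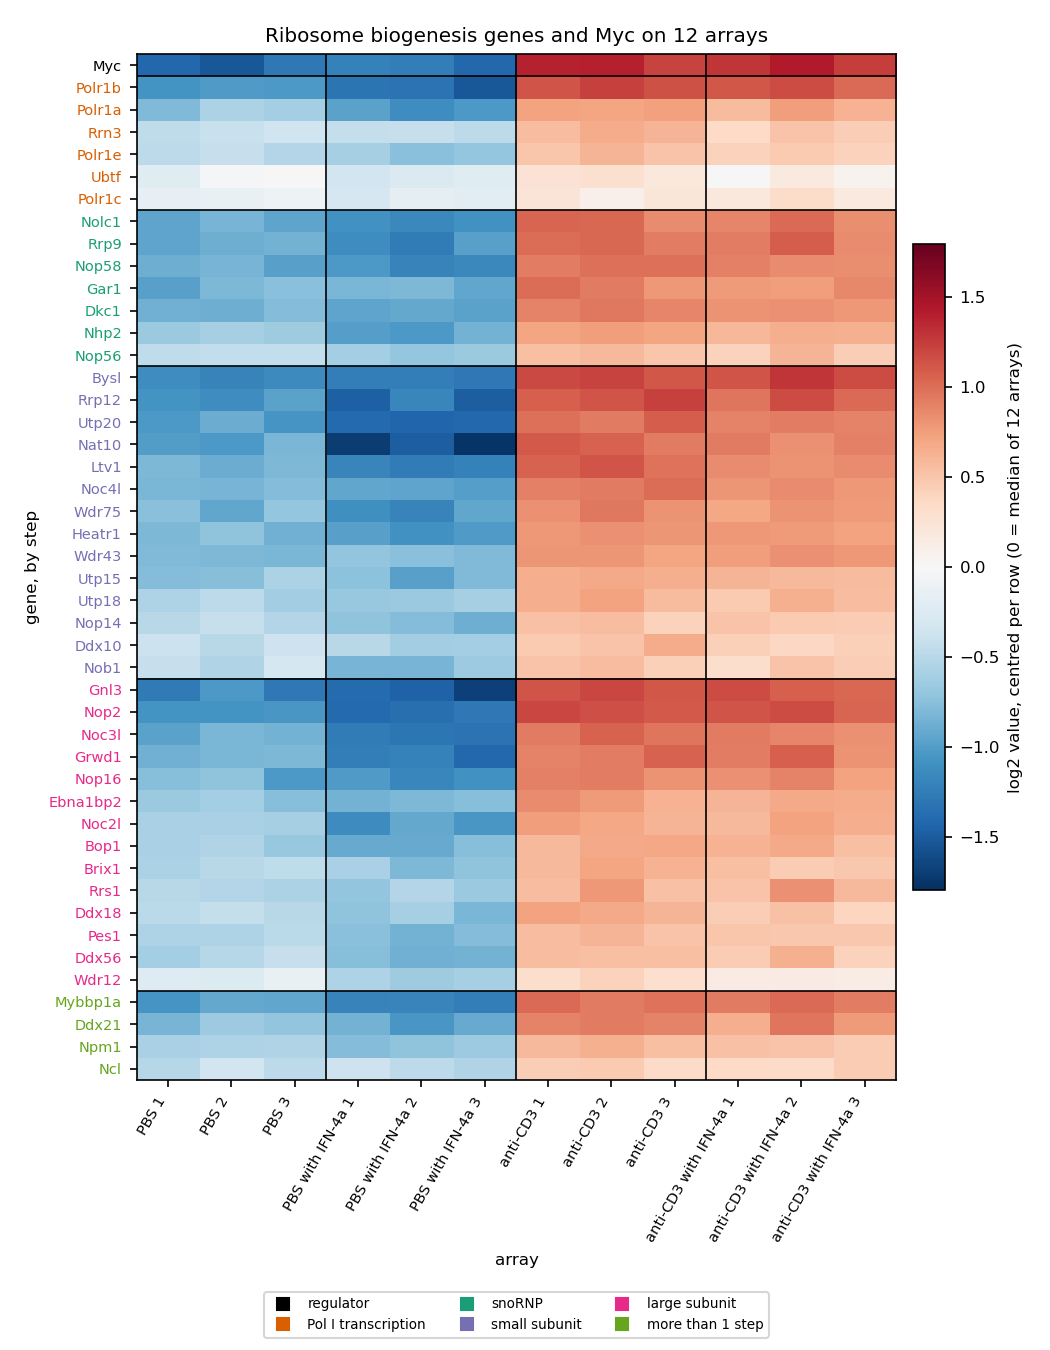
Values of the 46 measured members on the 12 arrays (rows are genes ordered by step and, within a step, by change with anti-CD3 alone; columns are arrays; colour is the log2 value centred per row). Resting arrays are blue and stimulated arrays red in nearly every row, and the 3 arrays of PBS with IFN-4a are the darkest blue for 44 members by their mean.

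The first comparison asked what stimulation did without the interferon. With anti-CD3 alone, all 46 measured members rose, by a median change of 1.5004, from 0.30 for Polr1c to 2.75 for Myc, and 38 of the 46 rose at least to 2 times their PBS level. Such a rise was reached by 563 of all 22180 genes. Of all genes tested, 13.8% were called higher and 18.0% lower in this comparison (limma, Benjamini-Hochberg adjusted p under 0.05), and the median change of all genes was -0.036. The median change was 1.75 for the snoRNP genes, 1.63 for the small subunit, 1.39 for the proteins of more than 1 step, 1.27 for the large subunit and 1.01 for polymerase I transcription. In bulk RNA, fewer cells of a type and less RNA per cell cannot be told apart. All 46 calls held in each of the 21 alternative settings, with the highest adjusted p at 0.0132.

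Myc had the largest change of all members. Its values were -1.42, -1.52 and -1.29 with PBS, -1.22, -1.25 and -1.41 with PBS and IFN-4a, 1.38, 1.41 and 1.22 with anti-CD3, and 1.28, 1.43 and 1.25 with anti-CD3 and IFN-4a. Stimulated and resting arrays were far apart, and within each set the arrays with and without the interferon overlapped. Myc rose by 2.75 (SE 0.08, a 6.71-fold rise, adjusted p 1.31e-11, limma) with anti-CD3 alone and ranked 40 of 22180 genes by its change. With the interferon present the change was 2.61, a 6.11-fold rise.

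Among the polymerase I genes the change was uneven. Polr1b and Polr1a, which encode the large catalytic subunits of the enzyme, had the largest changes of the step. Polr1b was at -1.08, -1.02 and -1.03 with PBS, -1.31, -1.33 and -1.52 with PBS and IFN-4a, 1.13, 1.24 and 1.15 with anti-CD3, and 1.12, 1.17 and 1.02 with both. It rose by 2.22 (SE 0.07, 4.64-fold, adjusted p 1.57e-11, limma) without the interferon. For Polr1a the values were -0.79, -0.57 and -0.61 with PBS, -0.96, -1.12 and -1.03 with PBS and IFN-4a, 0.72, 0.70 and 0.74 with anti-CD3, and 0.57, 0.75 and 0.63 with both, and its change was 1.38. For both subunits the interferon arrays lay lowest among the resting ones. Rrn3, the initiation factor that recruits the polymerase, and Polr1e, another subunit, each rose by about 2-fold, with changes of 1.02 and 1.01. The change was far smaller for Polr1c, a subunit shared with polymerase III, and for Ubtf, the factor that binds ribosomal DNA. Polr1c was at -0.15, -0.13 and -0.09 with PBS, -0.31, -0.18 and -0.21 with PBS and IFN-4a, 0.23, 0.09 and 0.22 with anti-CD3, and 0.18, 0.33 and 0.17 with both. Its change was 0.30 (SE 0.06, adjusted p 0.00164, limma), and that of Ubtf was 0.32 (adjusted p 0.00246, limma). The 3 arrays of each group stayed apart from those of the other for both genes, but with a gap that was small beside that of Polr1b.

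The snoRNP genes spanned the narrowest range of changes among these steps, 0.99 to 1.89. Nolc1, a chaperone of snoRNPs, and Rrp9, a protein of the snoRNP that guides early precursor cleavage, had changes of 1.89 and 1.88. Nolc1 was at -0.95, -0.83 and -0.95 with PBS, -1.09, -1.17 and -1.09 with PBS and IFN-4a, 1.04, 1.04 and 0.85 with anti-CD3, and 0.88, 1.02 and 0.83 with both. Rrp9 was at -0.95, -0.88 and -0.85 with PBS, -1.12, -1.25 and -0.98 with PBS and IFN-4a, 1.01, 1.03 and 0.92 with anti-CD3, and 0.92, 1.09 and 0.85 with both. Stimulated values of both genes overlapped between the arrays with and without the interferon. Of the proteins of box H/ACA particles, which guide pseudouridylation, Dkc1 and Gar1 each changed by 1.75 and Nhp2 by 1.36. Of the core of box C/D particles, which guide methylation, Nop58 changed by 1.87 and Nop56 by 0.99, the smallest change of the step. Nop56 was at -0.46, -0.44 and -0.44 with PBS, -0.62, -0.70 and -0.67 with PBS and IFN-4a, 0.54, 0.59 and 0.49 with anti-CD3, and 0.41, 0.61 and 0.44 with both. Its value is the mean of 3 array rows whose changes were 1.23, 0.58 and 1.15, so the rows of this snoRNA host gene differed in size and not in direction.

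All 14 measured small subunit genes rose. The largest changes were those of Bysl, an assembly factor of the pre-small subunit, and Rrp12, which acts in maturation and export. Bysl was at -1.12, -1.20 and -1.15 with PBS, -1.24, -1.25 and -1.29 with PBS and IFN-4a, 1.18, 1.21 and 1.12 with anti-CD3, and 1.14, 1.29 and 1.17 with both. It rose by 2.33 (SE 0.06, 5.02-fold, adjusted p 1.85e-12, limma), with a narrow spread in every group. Rrp12 rose by 2.20, with values of -1.07, -1.12 and -0.97 with PBS, -1.47, -1.18 and -1.48 with PBS and IFN-4a, 1.08, 1.14 and 1.23 with anti-CD3, and 0.97, 1.17 and 1.02 with both. The processome proteins ranged from 2.01 for Utp20 through 1.65 for Wdr75, 1.60 for Heatr1, 1.58 for Wdr43 and 1.37 for Utp15 to 1.20 for Utp18. Noc4l changed by 1.76 and its partner Nop14 by 0.98. The helicase gene Ddx10 changed by 0.97. Nob1, the endonuclease that makes the final cut of the small subunit RNA, had the smallest change of the step at 0.93. Nob1 was at -0.42, -0.54 and -0.32 with PBS, -0.84, -0.83 and -0.65 with PBS and IFN-4a, 0.52, 0.56 and 0.43 with anti-CD3, and 0.32, 0.51 and 0.44 with both. Even this smallest change left every stimulated array above every resting one.

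Large subunit genes rose in 14 of 14 cases. Gnl3, the nucleolar GTPase nucleostemin, and Nop2 led. Gnl3 was at -1.28, -1.04 and -1.29 with PBS, -1.39, -1.46 and -1.68 with PBS and IFN-4a, 1.14, 1.20 and 1.11 with anti-CD3, and 1.17, 1.08 and 1.04 with both. Gnl3 rose by 2.35 (SE 0.08, 5.11-fold, adjusted p 8.62e-11, limma). Nop2, whose window is printed above, rose by 2.22, with values of -1.07, -1.08 and -1.04 with PBS, -1.40, -1.35 and -1.28 with PBS and IFN-4a, 1.20, 1.16 and 1.10 with anti-CD3, and 1.13, 1.18 and 1.04 with both. The 3 genes of the PeBoW complex, which acts in processing of large subunit RNA, differed in size of change: 1.26 for Bop1, 1.09 for Pes1 and 0.55 for Wdr12. Wdr12 was at -0.23, -0.25 and -0.14 with PBS, -0.56, -0.63 and -0.60 with PBS and IFN-4a, 0.31, 0.41 and 0.30 with anti-CD3, and 0.15, 0.14 and 0.14 with both. In Wdr12, each of the 4 groups of arrays stood apart from the next. Noc3l changed by 1.87, Grwd1 by 1.79, Nop16 by 1.72, Ebna1bp2 by 1.43 and Noc2l by 1.27. The remaining 4, Brix1, Rrs1, Ddx18 and Ddx56, changed by 1.06 to 1.16.

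The proteins of more than 1 step rose in 4 of 4 cases. Mybbp1a was at -1.06, -0.92 and -0.94 with PBS, -1.21, -1.19 and -1.25 with PBS and IFN-4a, 1.01, 0.94 and 0.98 with anti-CD3, and 0.94, 1.03 and 0.92 with both, a rise of 1.95 without the interferon. Ddx21, an RNA helicase that acts in polymerase I transcription and in processing, rose by 1.64, from -0.84, -0.65 and -0.70 with PBS to 0.90, 0.94 and 0.90 with anti-CD3. With the interferon Ddx21 was at -0.86, -1.05 and -0.91 at rest and 0.65, 0.96 and 0.77 after stimulation. Npm1, the nucleolar chaperone nucleophosmin, rose by 1.15 as the mean of 2 rows whose changes were 1.63 and 0.66. Ncl, nucleolin, had the smallest change of these at 0.86, with values of -0.51, -0.34 and -0.48 with PBS, -0.37, -0.48 and -0.55 with PBS and IFN-4a, 0.45, 0.47 and 0.34 with anti-CD3, and 0.36, 0.34 and 0.46 with both. Values of Ncl with and without the interferon overlapped both at rest and after stimulation.

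**Figure D2:**
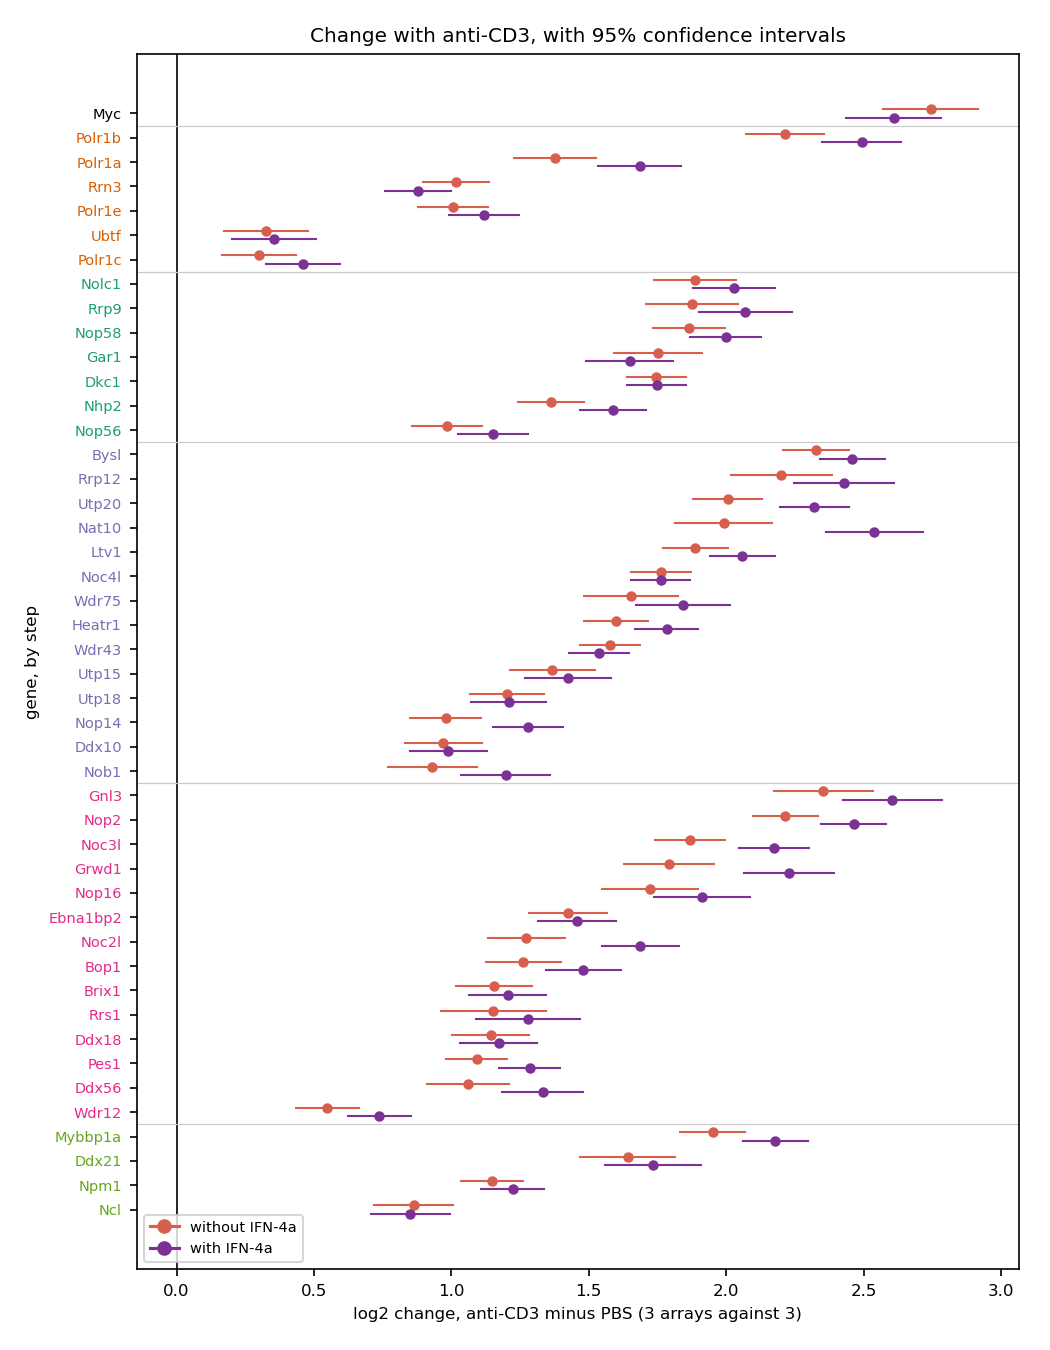
Change with anti-CD3 of each measured member (log2, x axis; genes by step on the y axis) without and with IFN-4a, as points with 95% confidence intervals. Every interval lies above 0; Myc is farthest right, and Polr1c, Ubtf and Wdr12 are nearest 0.

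The same question was asked in the presence of the interferon. With IFN-4a on both sides, all 46 measured members rose again with anti-CD3, by a median change of 1.67, from 0.35 for Ubtf to 2.61 for Myc, and 40 reached a 2-fold rise. Such a rise was reached by 580 of all 22180 genes. In this comparison 12.8% of all genes were called higher and 14.9% lower, and the median change of all genes was -0.035. Gnl3 changed by 2.60, Nat10 by 2.54, Polr1b by 2.49, Nop2 by 2.46 and Bysl by 2.46. Step medians were 1.77 for the small subunit, 1.75 for the snoRNP genes, 1.48 for the proteins of more than 1 step, 1.47 for the large subunit and 0.999 for polymerase I transcription. All 46 calls held in the 21 settings (highest adjusted p 0.0089).

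Markers of T cells moved with stimulation too. Of 7 CD8 T cell markers 6 were measured, and 4 of those 6 fell with anti-CD3 alone, Thy1 by 1.19 and Cd3d by 0.64 the most, while Cd8a was at a change of 0.08 that did not pass. The summed value of the 6 was 1.36 to 1.62 on the PBS arrays, 0.70 to 0.85 with PBS and IFN-4a, -1.10 to -0.72 with anti-CD3 and -1.05 to -0.74 with both. The 6 lists of markers of other blood cells held 2 to 6 measured genes each. With anti-CD3 alone, 1 gene fell in each of the B cell (Cd79b, by 0.69), NK cell (Klre1, by 0.25), granulocyte (Elane, by 0.24) and erythroid lists (Itga2b, by 0.23), and Itgax rose by 0.56 among myeloid markers. Of all genes 18.0% were called lower and 13.8% higher in this comparison. Centred values do not show whether a marker is present at all. The part of these markers in the members' changes was not tested.

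**Figure D3:**
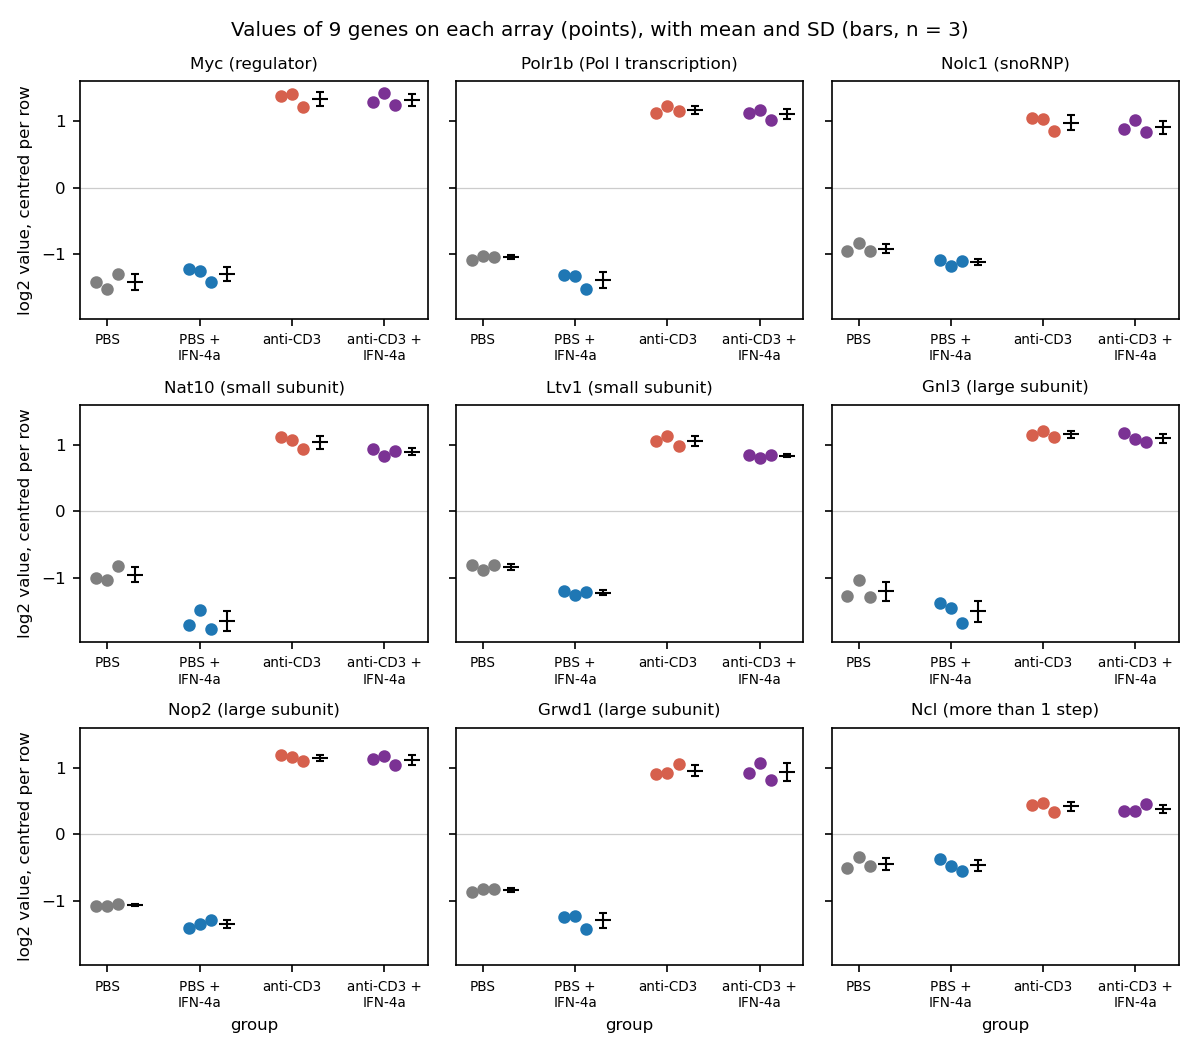
Values of 9 members on each of the 12 arrays (points; log2, centred per row) by group, with the mean and SD of the 3 arrays (bars). Nat10, Ltv1 and Grwd1 lie lower in PBS with IFN-4a than in PBS with no overlap, while Myc and Ncl overlap there.

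The next comparison was the interferon in unstimulated cells. With IFN-4a, 25 of the 46 members fell and 0 rose (limma; at an unadjusted p under 0.05 the counts were 34 lower and 0 higher). Of all genes 8.37% were called lower and 4.25% higher after adjustment. Their shares at the unadjusted threshold were not counted. The median change of the members was -0.23, that of all genes -0.010, and 44 of the 46 changes were below 0. Over all genes, 11818 of 22180 changes were below 0. The members' changes were small: none reached a 2-fold fall, and the range was -0.69 for Nat10 to 0.12 for Myc. For 35 members the 3 interferon arrays all lay below the 3 PBS arrays, and these included all 25 that were called. The share of all genes with such a separation was not counted. Of the 25 calls, 16 held in all 21 alternative settings. Leaving out 1 array in turn gave 18 to 26 calls.

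Nat10, the acetyltransferase that modifies small subunit RNA, fell most. Its values were -1.01, -1.03 and -0.83 with PBS against -1.70, -1.48 and -1.77 with PBS and IFN-4a, and 1.11, 1.07 and 0.93 with anti-CD3 against 0.93, 0.83 and 0.91 with both. The resting groups were well apart, and the stimulated ones nearly touched, at 0.929 without and 0.928 with the interferon. Nat10 fell by 0.69 (SE 0.08, a 1.62-fold fall, adjusted p 7.09e-05, limma) and ranked 31 of 22180 genes among falls. Grwd1, a histone-binding protein of the large subunit pathway, fell by 0.46 (adjusted p 0.00123, limma). Grwd1 was at -0.87, -0.82 and -0.82 with PBS, -1.24, -1.22 and -1.42 with PBS and IFN-4a, 0.90, 0.92 and 1.06 with anti-CD3, and 0.92, 1.08 and 0.82 with both. Noc2l, an early large subunit factor, fell by 0.44 (adjusted p 0.00047, limma), with -0.58, -0.59 and -0.60 with PBS and -1.14, -0.92 and -1.05 with PBS and IFN-4a. After stimulation Noc2l was at 0.75, 0.70 and 0.61 without and 0.58, 0.72 and 0.65 with the interferon. For Grwd1 and Noc2l, the resting groups were apart and the stimulated groups overlapped.

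By step, the fall passed the test for 10 of 14 large subunit genes, 8 of 14 small subunit genes, 3 of 6 polymerase I genes, 3 of 7 snoRNP genes and 1 of 4 proteins of more than 1 step, and Myc was not called. Step medians were -0.27, -0.26, -0.21, -0.22 and -0.19 in that order. The share of all genes called lower was 8.37%. Among large subunit genes Noc3l fell by 0.41, Wdr12 by 0.39, Ddx56 by 0.31, Nop2 by 0.28 and Pes1 by 0.26. Gnl3 fell by 0.30, Bop1 by 0.25 and Ddx18 by 0.25. The call of Ddx18 rested on 1 of its 2 rows, whose changes were -0.02 and -0.47. Among small subunit genes, Utp20 fell by 0.42, Ltv1 by 0.39, Nob1 by 0.35, Rrp12 and Nop14 by 0.32 each, Wdr75 by 0.29 and Heatr1 by 0.23. Wdr43, a processome protein, was at a change of 0.06 (adjusted p 0.497, limma), with its 3 interferon arrays above the PBS arrays. In the polymerase I step, Polr1a fell by 0.38, Polr1b by 0.34 and Polr1e by 0.22, whereas Ubtf (-0.20), Polr1c (-0.11) and Rrn3 (-0.033) were not called. Nhp2 fell by 0.32, Nop58 by 0.24 and Nop56 by 0.22 among the snoRNP genes. Dkc1 (-0.11) and Gar1 (-0.011), which share their particles with Nhp2, were not called, nor were Nolc1 (-0.20) and Rrp9 (-0.23). Mybbp1a fell by 0.24, and Ddx21 (-0.21), Npm1 (-0.16) and Ncl (-0.023) did not pass. The 9 calls that some settings lost were Polr1e, Nop56, Nop58, Wdr75, Heatr1, Rrp12, Bop1, Ddx18 and Gnl3.

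Myc did not pass in resting cells: its change with IFN-4a was 0.12 (95% interval -0.05 to 0.29, adjusted p 0.376, limma), and it was -0.16 after quantile normalization. In this comparison CD8 T cell markers moved beside the members, with Thy1 falling by 0.63 and Cd3d by 0.24, and the other 4 measured markers, Cd8a (0.14), Cd8b1 (0.05), Cd3e (-0.010) and Cd3g (-0.021), not called. Of all genes 8.37% were called lower here. The summed marker value was lower in PBS with IFN-4a than in PBS with no overlap, as given above. The part of these markers in the members' changes was not tested.

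In stimulated cells, 1 of the 46 members fell with the interferon and 0 rose (limma; 7 lower and 0 higher at an unadjusted p under 0.05). Of all genes 1.46% were called lower and 2.02% higher after adjustment, and their shares at the unadjusted threshold were not counted. The members' median change was -0.08 against -0.0023 for all genes, the range was -0.22 to 0.05, and 42 changes were below 0. Over all genes, 11304 of 22180 changes were below 0. The called member was Ltv1, an assembly and export factor of the small subunit. Ltv1 was at 1.06, 1.13 and 0.97 with anti-CD3 and 0.85, 0.80 and 0.85 with both, after -0.80, -0.89 and -0.81 with PBS and -1.19, -1.27 and -1.22 with PBS and IFN-4a. The interferon arrays were lower with no overlap in both states. Ltv1 fell by 0.22 (SE 0.06, adjusted p 0.0431, limma) in stimulated cells. That call was lost when any of 10 of the 12 arrays was left out, all except PBS 2 and anti-CD3 3, and its highest adjusted p over all settings was 0.191. It was also lost with the replicate number as a block (adjusted p 0.0594, limma). Ddx18 (-0.22, adjusted p 0.0986) and Wdr12 (-0.20, adjusted p 0.0607) followed without passing in limma. For 18 members the 3 stimulated arrays with the interferon lay below the 3 without it, Ltv1 among them. Of these 18, 17 were not called, and the share of all genes with such a separation was not counted. Myc was at -0.016 with a 95% interval of -0.19 to 0.16.

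**Figure D4:**
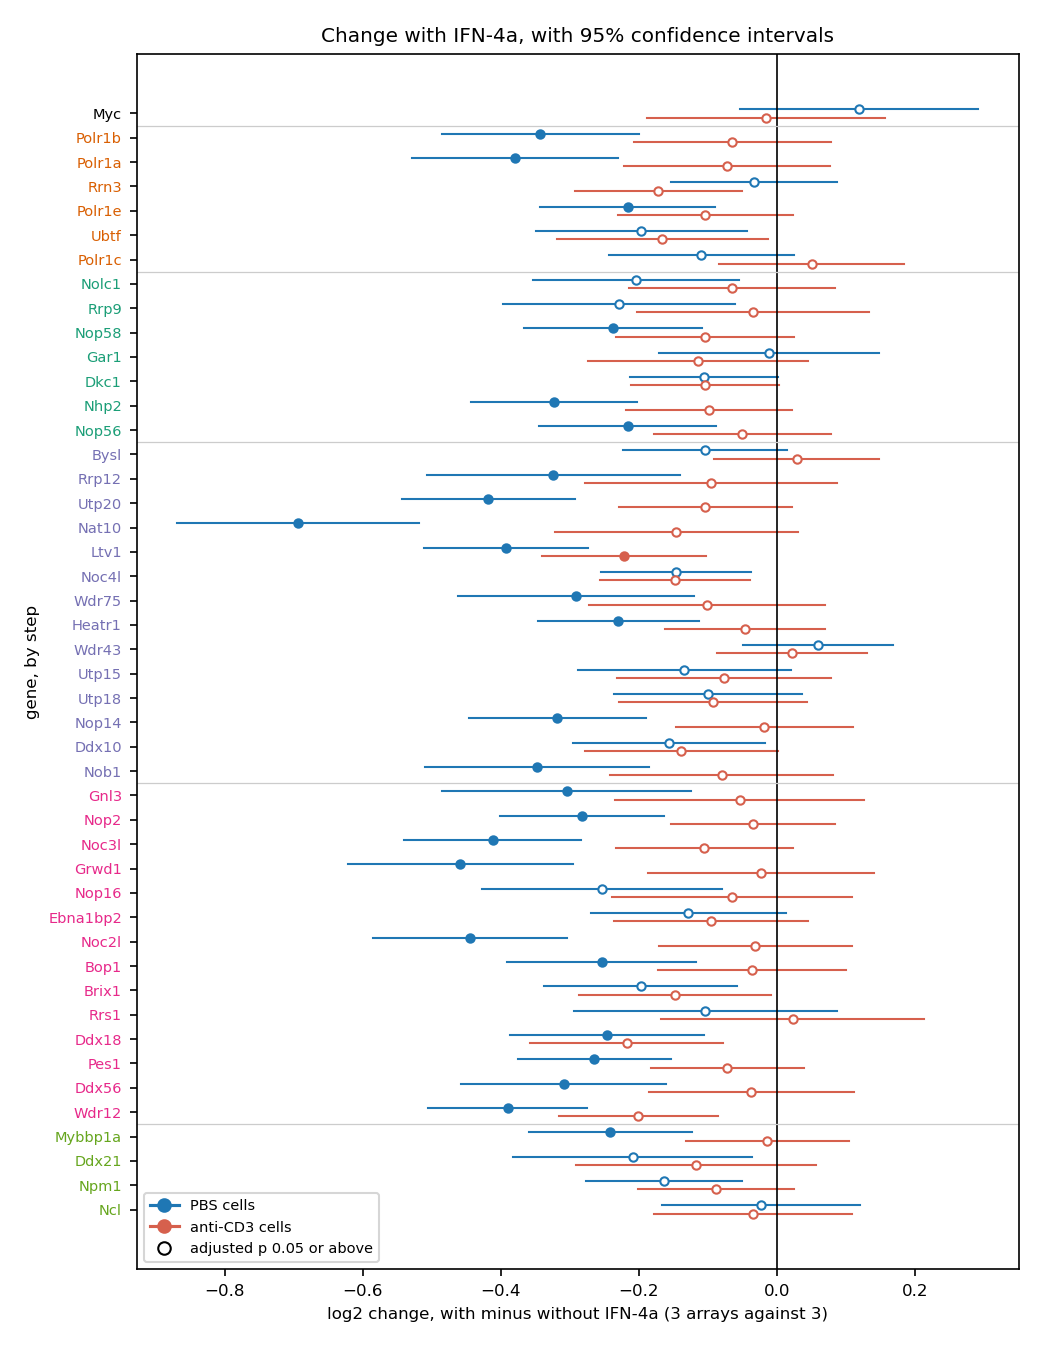
Change with IFN-4a of each measured member (log2, x axis; genes by step on the y axis) in PBS cells and in anti-CD3 cells, as points with 95% confidence intervals; filled points have an adjusted p under 0.05. In PBS cells 25 points are filled, all left of 0, and in anti-CD3 cells only that of Ltv1 is.

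Whether the interferon's change differed between the states was tested as the change in anti-CD3 cells minus that in PBS cells, which is also the anti-CD3 change with minus without the interferon. The median of this difference was 0.17 over the members and 0.0096 over all genes. The difference was above 0 for 11822 of the 22180 genes and for 40 of the 46 members. Only Nat10 passed, with a difference of 0.55 (SE 0.12, 95% interval 0.30 to 0.80, adjusted p 0.0419, limma), and 0 members passed below 0. At an unadjusted p under 0.05 the counts were 18 above and 0 below. Of all genes 0.298% were called higher and 0.645% lower after adjustment. These shares are to be set against the 1 adjusted call, since all genes were not counted at the unadjusted threshold. The Nat10 call was lost when any of 11 of the 12 arrays was left out, all except PBS with IFN-4a 2, with a highest adjusted p of 0.121 over the settings. With the replicate number as a block it was lost too (adjusted p 0.0694, limma). Grwd1 (0.44, adjusted p 0.0879) and Noc2l (0.41, adjusted p 0.0568) had the next largest differences and did not pass in limma. Myc was at -0.14 (adjusted p 0.745, limma). So for 24 of the 25 members that fell in resting cells, a difference from stimulated cells was not shown. All these comparisons share group means: the 3 PBS arrays serve both the interferon and the anti-CD3 comparison, and likewise for the other groups.

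Further genes of the same pathway were listed by step, 97 measured in all. Of these, 85 rose and 4 fell with anti-CD3 alone, beside 13.8% and 18.0% of all genes. When IFN-4a was on both sides, 86 rose and 4 fell with anti-CD3, beside 12.8% and 14.9% of all genes. With IFN-4a, 38 of the 97 fell and 1 rose in PBS cells, beside 8.37% and 4.25% of all genes. In anti-CD3 cells 0 were called, beside 1.46% lower and 2.02% higher of all genes. At an unadjusted p under 0.05 (limma) 16 were lower and 0 higher there, a threshold at which all genes were not counted. With anti-CD3 alone, 37 of 38 measured other large subunit genes rose and 1 fell, 32 of 37 other small subunit genes rose and 1 fell, 10 of 12 other snoRNP genes rose and 1 fell, and 6 of 10 other polymerase I genes rose and 1 fell. Their median changes were 1.08, 0.89, 1.14 and 0.48. Rrp1b (2.39) and Rpf2 (2.16) of the large subunit, Nol10 (2.18) and Pno1 (1.83) of the small subunit, and Ruvbl1 (1.503) and Naf1 (1.4996) of snoRNP assembly rose most. In the polymerase I list, Cd3eap, a subunit of the enzyme, rose by 1.27 and Taf1d of its selectivity factor by 1.13, though the row of Taf1d with the highest mean gave -0.25. Those that fell were Nop53 by 0.45, Riok3 by 0.25, Taf1b by 0.23 and Pih1d1 by 0.20, and the call of Pih1d1 was lost in 16 of the 21 settings. With IFN-4a in PBS cells, 20 of 38 other large subunit genes, 13 of 37 small subunit genes, 3 of 12 snoRNP genes and 2 of 10 polymerase I genes fell. Znhit6, a box C/D assembly factor, fell by 0.61, Pwp2 by 0.48, Pno1 by 0.45, Wdr74 by 0.44, Sdad1 by 0.41, Taf1c by 0.33, Znhit3 by 0.26 and Taf1d by 0.23. Riok1, a kinase of late small subunit maturation, was the 1 that rose, by 0.36. Of these calls, that of Znhit3 was lost in 7 of the 21 settings and those of Taf1d and Riok1 in 3 each. In the difference between states, Pwp2 was called at 0.42 (adjusted p 0.0481, limma), a call lost in 13 of the 21 settings.

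Partners and antagonists of Myc had no common direction. Of the 14 genes of this list, 3 rose and 3 fell with IFN-4a in PBS cells (4.25% and 8.37% of all genes), 2 rose and 2 fell in anti-CD3 cells (2.02% and 1.46%), and 5 rose and 4 fell with anti-CD3 alone (13.8% and 18.0%). Mxd1, which competes with Myc for Max, rose by 1.66 with IFN-4a in PBS cells (SE 0.09, adjusted p 1.31e-08, limma) and by 1.07 in anti-CD3 cells, while Myc itself was not called in either. Max rose by 0.44 and 0.25, Mxd4 fell by 0.51 and 0.43, and Bin1, a Myc-interacting protein, fell by 0.45 and 0.28 in the same comparisons. The Max call in anti-CD3 cells was lost in 11 of the 21 settings. Mxd1 differed between the states by -0.58 (adjusted p 0.047, limma), a call lost in 13 settings. With anti-CD3 alone, Mxd4 fell by 1.35 and Bin1 by 0.85, and Mga and Mlx rose by 0.35 and 0.31. Mxd1 was not called with anti-CD3 alone (-0.028, adjusted p 0.866, limma). With the interferon on both sides, Mxd1 fell by 0.61 with anti-CD3.

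**Figure D5:**
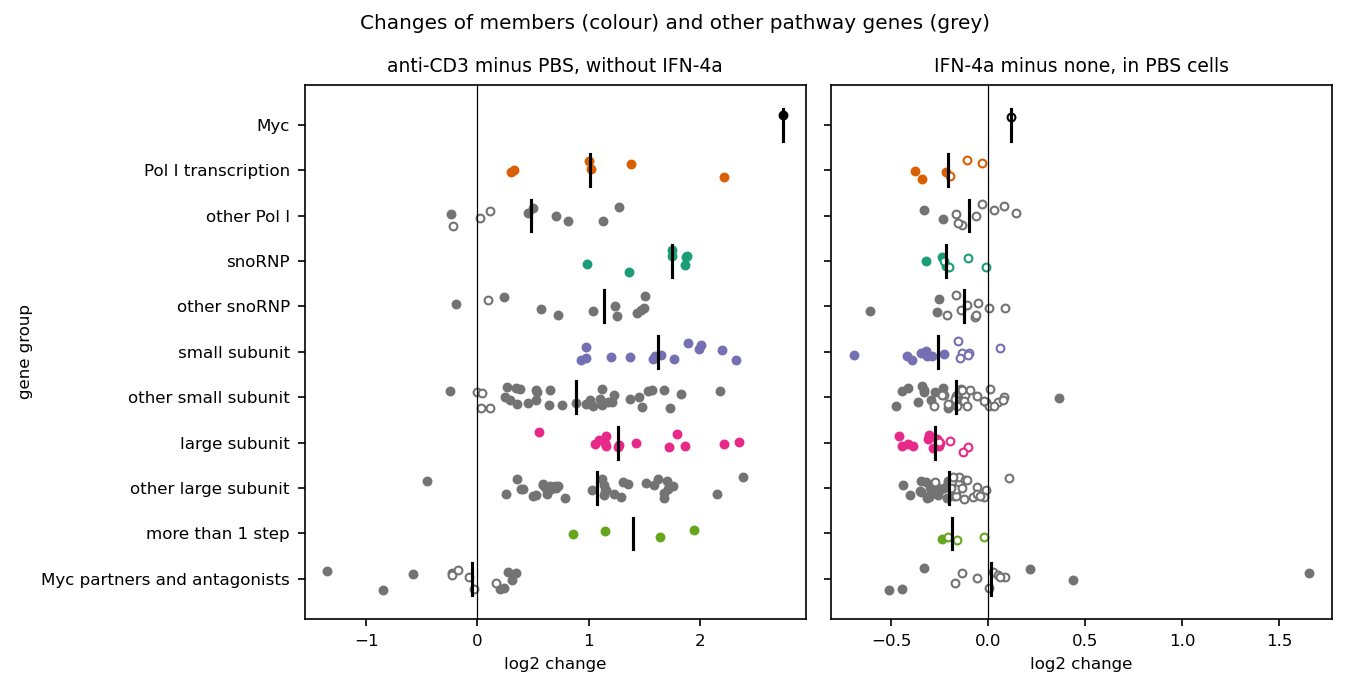
Changes (log2, x axes) of the members by step in colour and of the other pathway genes in grey, with anti-CD3 alone (left) and with IFN-4a in PBS cells (right); filled points have an adjusted p under 0.05 and black bars are medians. The medians of members and of other genes lie right of 0 at left and left of 0 at right, with exceptions. Myc lies right of 0 in both (2.75 at left, 0.12 at right). The medians of its partners and antagonists are -0.05 at left and 0.01 at right.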

How the data were processed

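RNA was extracted with an RNeasy kit and biotin-labelled by the WT Plus method, per the labels' protocols. The deposited log2 values (base taken, not stated) came as 1 table of 33793 rows in which the authors' values were centred per row, with the largest absolute row median at 5e-07. Log base, normalization and probe summarization: not given in the sources used here. Folds would be larger if the base were e, and signal over background and depth could not be assessed. The number of arrays, 12, limits the precision. Within-group correlations over all rows were at least 0.6076 and those between groups at most 0.5270.

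The platform's probe table named 23521 rows with 1 symbol, 1814 with several and 8458 with none. Rows of a gene were averaged, with no filter on low values, giving 22180 genes. limma 3.58.1 in R 4.3.3 fitted a mean per group over all 12 arrays (8 residual and 5.178 prior degrees of freedom), with two-sided moderated tests and Benjamini-Hochberg adjustment over all genes in each of 5 comparisons, called under 0.05. Figures were drawn with Python 3.11.15 and matplotlib 3.10.9. Promoter windows and symbols were RefSeq's for GRCm38.p6.

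The members and lists were chosen with earlier results of these data known. Every member could be named. Values on every array were given for Myc, for the 2 largest and the smallest changes per step with anti-CD3 alone, for the 3 largest called changes per comparison and direction and for members called in the difference between states. In the other pathway lists, the 2 largest called changes per direction were named for anti-CD3 alone and for IFN-4a in PBS cells; marker genes of other cells were named after their values were seen. Table columns of other samples numbered 0. The 21 alternatives were another row per gene, 2 normalizations, array weights, a robust prior, only the groups compared, the replicate number as a block, rows tested singly, the less variable genes left out, and 12 fits without 1 array.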

Additional observations from a re-analysis of the deposited data

Results flagged for a closer look

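Nat10 stood out because the test of the difference itself passed (0.55, 95% interval 0.30 to 0.80, adjusted p 0.0419, limma). Its change with IFN-4a was -0.69 in PBS cells and -0.15 in anti-CD3 cells, the latter not called (adjusted p 0.442, limma). All 3 interferon arrays were lower than the 3 without it in both states. In anti-CD3 cells the nearest arrays nearly touched, at 0.9290 without and 0.9284 with the interferon. The call of the difference was lost in 13 of the 21 alternative settings, 11 of them fits without 1 array. Another was the fit with the replicate number as a block (adjusted p 0.0694, limma). A pair of array rows outside the members' counts also carried a signal with anti-CD3 alone. The row annotated with both Tsr1, a small subunit factor, and Srr changed by 1.97 (adjusted p 3.16e-10 over all rows, limma). The row annotated with both Fbl, the methyltransferase of box C/D particles, and Tulp4 changed by 1.48 (adjusted p 1.07e-07, limma). With IFN-4a in PBS cells these rows fell by 0.37 and 0.33 (adjusted p 0.00208 and 0.0412, limma). Which gene of each pair gave the signal was not tested.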

How the results depend on the processing

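Of the 105 counts of called members (21 settings in 5 comparisons), 73 were within 1.5 times of the count reported. For the difference between states, the setting with only the groups compared was the reported fit itself, since all groups enter, and could not differ. Both anti-CD3 counts were 46 in every setting; after quantile normalization the median changes were 1.29 without and 1.43 with IFN-4a. The count with IFN-4a in PBS cells was 18 to 31, and the 31 came only with the less variable genes left out. The other settings gave 18 to 27. Variability was ranked over all arrays, stimulated ones included, and all 46 members were among the genes kept. That setting therefore removed only other genes from the adjustment. Its counts, here and below, do not test how stable the members' calls were. With IFN-4a in anti-CD3 cells, 4 members were called with array weights, 2 with the less variable genes left out, 0 with only the groups compared and 0 with rows tested alone, and 0 to 1 leaving out an array. For the difference between states, 2 were called after quantile normalization, 3 with array weights, 3 with those genes left out and 0 with rows tested alone, and 0 to 2 leaving out an array. The cause of these shifts was not tested.

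Same-numbered arrays of different groups had deviation correlations of -0.0404 to 0.2973, with 11 of 18 above 0.1. Their median was 0.1347, against -0.0584 for arrays of other numbers in different groups. Of the 12 arrays, 11 matched best their own number in another group. The labels do not say what the numbers share, so the reported fit left them out, and a shared replicate effect may remain in it. With the replicate block, 26 members were called with IFN-4a in PBS cells, 0 in anti-CD3 cells (Ltv1, adjusted p 0.0594, limma) and 0 in the difference between states (Nat10, adjusted p 0.0694, limma).

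Of 178 named changes over the settings, 3562 values kept direction and call, 141 lost the call, 18 gained it and 15 changed sign. Changes of sign with IFN-4a in PBS cells were Myc (-0.1613) and Ncl (0.0023) after quantile normalization and Gar1 with array weights (0.0048). Leaving out an array gave -0.0693 to 0.0275 for Ncl and -0.0742 to 0.0330 for Gar1. In anti-CD3 cells it gave -0.0744 to 0.0203 for Myc and -0.0004 to 0.0793 for Polr1c. The Myc difference between states was 0.0037 after quantile normalization, and Taf1d with anti-CD3 alone was -0.2459 in its row with the highest mean. Only Taf1d was a called change. Background correction and blocks for slide or scan date were not run, since the values carry neither.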

Other observations

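Several members host small nucleolar RNAs in their introns, and some of these RNAs had array rows of their own. By RefSeq positions, without use of strand, 19 snoRNA genes lay inside 7 members, and 10 of them in 6 members were measured. Whether such a row measured the snoRNA itself or host RNA that spans it was not tested. The snoRNAs named here were chosen after their values were seen. With anti-CD3 alone 6 of the 10 were higher and 2 lower, beside 25 higher and 31 lower of 81 snoRNA genes measured in all (limma, adjusted p under 0.05). Snord19 in Gnl3 rose by 2.43 where Gnl3 rose by 2.35, and Snord53 in Wdr43 rose by 1.51 where Wdr43 rose by 1.58. Snord110 in Nop56 and Snord82 in Ncl fell by 0.29 and 0.17 where their hosts rose by 0.99 and 0.86. With IFN-4a in PBS cells 5 of the 10 were lower, beside 37 of 81 (45.68%) of all measured snoRNA genes. Snord92 in Wdr43 fell by 0.65 where Wdr43 was at a change of 0.06 and not called. A row annotated with both Snord57 and Nop56 fell by 0.46 with anti-CD3 alone, against a rise of 0.99 for Nop56.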
